A study of Sus scrofa with 2 samples.

Results

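DEAF1, ZFPM1 and CIC are 3 genes for regulators of transcription, of 16509 protein-coding pig genes with a symbol. They were chosen by the deposited fold enrichment of their promoter peaks, which was among the highest in both libraries of this CUT&Tag series, so the height of those peaks is given below as a description and without a test. The series profiled the zinc finger factor ZBTB16 (PLZF) in immature spermatogonia of wild-type pigs, with no treatment named, in 1 group of 2 libraries (replicate 1 and replicate 2) of 100000 testis cells each. CUT&Tag directs a transposase with an antibody to the places on chromatin that a protein occupies and sequences the fragments cut there. Its stated aim was to find the genes that ZBTB16 occupies in these cells. The labels do not say whether the libraries came from separate animals or cultures, and give no age for the donors of the cells. The protocols mention an IgG control, which is not analysed here, so the level that an unspecific antibody would give at these genes was not tested. Peak lists hold no RNA levels, so the labelled cell type could not be checked against its markers. In all, 6 of the 10273 peaks of replicate 1 and 4 of the 7301 peaks of replicate 2 were assigned to the 3 genes.

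DEAF1 is a DNA-binding protein with a SAND domain and a MYND zinc finger. ZFPM1, also called FOG1, is a multi-zinc-finger cofactor that binds GATA factors and brings the NuRD remodelling and deacetylase complex to their targets. CIC (capicua) is an HMG-box repressor that RAS-ERK signalling relieves, and its best-known targets are the ETS factor genes ETV1, ETV4 and ETV5. ZBTB16 is a transcription factor of undifferentiated spermatogonia that can recruit co-repressors and histone deacetylases. All positions are on Sscrofa11.1, and all 3 genes lie on the minus strand per the file's annotation.

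The promoter peak of DEAF1 was the strongest of any protein-coding gene with a symbol. DEAF1 (chromosome 2, 404514 to 427584) had a single peak in each library, at 427633 to 428215 in replicate 1 and at 427596 to 428223 in replicate 2. Its fold enrichment, the authors' ratio of the summit to the background of the same library, was 17.4 in replicate 1 and 18.4 in replicate 2. The summit rested on 204 fragments in replicate 1 (177 to 234, an exact 95% Poisson interval) and on 179 in replicate 2 (154 to 207). These fragment numbers were recovered from the deposited fold and p-value of each peak, and their intervals cover counting error only. The background was 10.8 fragments in replicate 1 and 8.80 in replicate 2. The −log10 q-value was 173.8 and 157.2. Both libraries thus held the DEAF1 peak far above the median promoter peak, which rested on 19 and 16 fragments. Outside this set of genes, 7 peaks in replicate 1 and 3 in replicate 2 had a higher fold, of which 1 and 0 were promoter peaks. More summit fragments than at DEAF1 were held by 14 and 13 peaks, of which 4 in each library were promoter peaks.

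The DEAF1 peak lay in the gap between DEAF1 and the next gene and did not reach either one. From the DEAF1 transcription start site (TSS), its nearest edge was 49 bp away in replicate 1 and 12 bp away in replicate 2, on the upstream side. TMEM80, a gene for a transmembrane protein, begins at 428297, which is 713 bp from the DEAF1 TSS. The peak ended 82 bp before TMEM80 in replicate 1 and 74 bp before it in replicate 2. The summits stood 338 and 283 bp upstream of the DEAF1 TSS, and 375 and 430 bp from the lower coordinate of TMEM80. No promoter peak was assigned to TMEM80 in either list, and each peak was assigned to 1 gene. The gene table gives no strand for TMEM80, so whether the peak serves a shared promoter was not tested. A looser condition, an end of another protein-coding gene with a symbol within 1 kb of the peak or inside it, was not rare. Among shared promoter peaks of such genes, 769 of 3498 met it in replicate 1 and 768 of 3501 in replicate 2. Peaks confined to a gap between neighbouring genes, as at DEAF1, were not counted.

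ZFPM1 had a peak on its TSS in both libraries and a weak second one in replicate 1 only. ZFPM1 (chromosome 6, 1091158 to 1153972) had its promoter peak at 1153832 to 1154320 in replicate 1 and at 1153825 to 1154290 in replicate 2. The fold was 12.2 in replicate 1 and 11.5 in replicate 2. The summit rested on 98 fragments (79.6 to 119) over a background of 7.13 in replicate 1, and on 75 fragments (59.0 to 94.0) over a background of 5.59 in replicate 2. Its width of 489 and 466 bp was below the median promoter peak, which measured 593 and 527 bp. Its summits lay 39 bp (replicate 1) and 128 bp (replicate 2) before the TSS. A second protein-coding model, LOC110261212 (1153369 to 1154160), overlaps the ZFPM1 TSS and the peak, so the peak cannot be assigned to ZFPM1 alone by position.

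The other peak assigned to ZFPM1 (1164527 to 1164956) had a fold of 4.43 from 13 fragments (6.92 to 22.2), and its summit lay 10.8 kb upstream. It sits in the last exon of ZNF469, a neighbouring zinc finger gene, and no replicate 2 peak overlapped it. At 13 fragments, absence from replicate 2 means only that no peak was detected there at this depth.

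CIC had its strong peak upstream of the annotated TSS and further peaks inside the gene. CIC (chromosome 6, 49638986 to 49664146) had its promoter peak at 49665490 to 49666341 in replicate 1 and at 49665506 to 49666434 in replicate 2. The fold was 10.1 in replicate 1 and 9.84 in replicate 2, from 123 fragments (102 to 147) and 88 fragments (70.6 to 108). The background was the highest of the 3 genes in replicate 1, at 11.3 fragments, and 8.05 in replicate 2. At 852 and 929 bp the peak was wider than 83.2% of the promoter peaks of replicate 1 and 93.9% of those of replicate 2. Its nearest edge was 1344 and 1360 bp upstream of the TSS, and its summits were 1629 and 1919 bp upstream. No other gene of the RefSeq table used here starts or ends between the CIC TSS and ERF, 14.7 kb away, so the peak had no nearer annotated gene end.

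Few promoter peaks at that distance were as high. Among the promoter peaks that the authors placed 1 to 2 kb upstream, CIC ranked 2 of 82 in replicate 1 and 2 of 50 in replicate 2 by fold. The median of this class was 4.46-fold and 17 fragments in replicate 1, and 4.69-fold and 17 fragments in replicate 2. The next peak below CIC had a fold of 9.14 in replicate 1 and 7.65 in replicate 2.

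Inside CIC, in intron 3 of the annotated transcript, 1 peak recurred and another did not. The recurring one (49651713 to 49652189 in replicate 1, 49651814 to 49652172 in replicate 2) had a fold of 3.29 from 26 fragments in replicate 1 and 3.803 from 25 fragments in replicate 2. The other (49654761 to 49655349) was in replicate 1 only, with a fold of 3.38, also from 26 fragments. Both stood on raised backgrounds, of 7.21 and 6.99 fragments in replicate 1, against a median of 2.67 over promoter peaks.

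**Figure D1:**
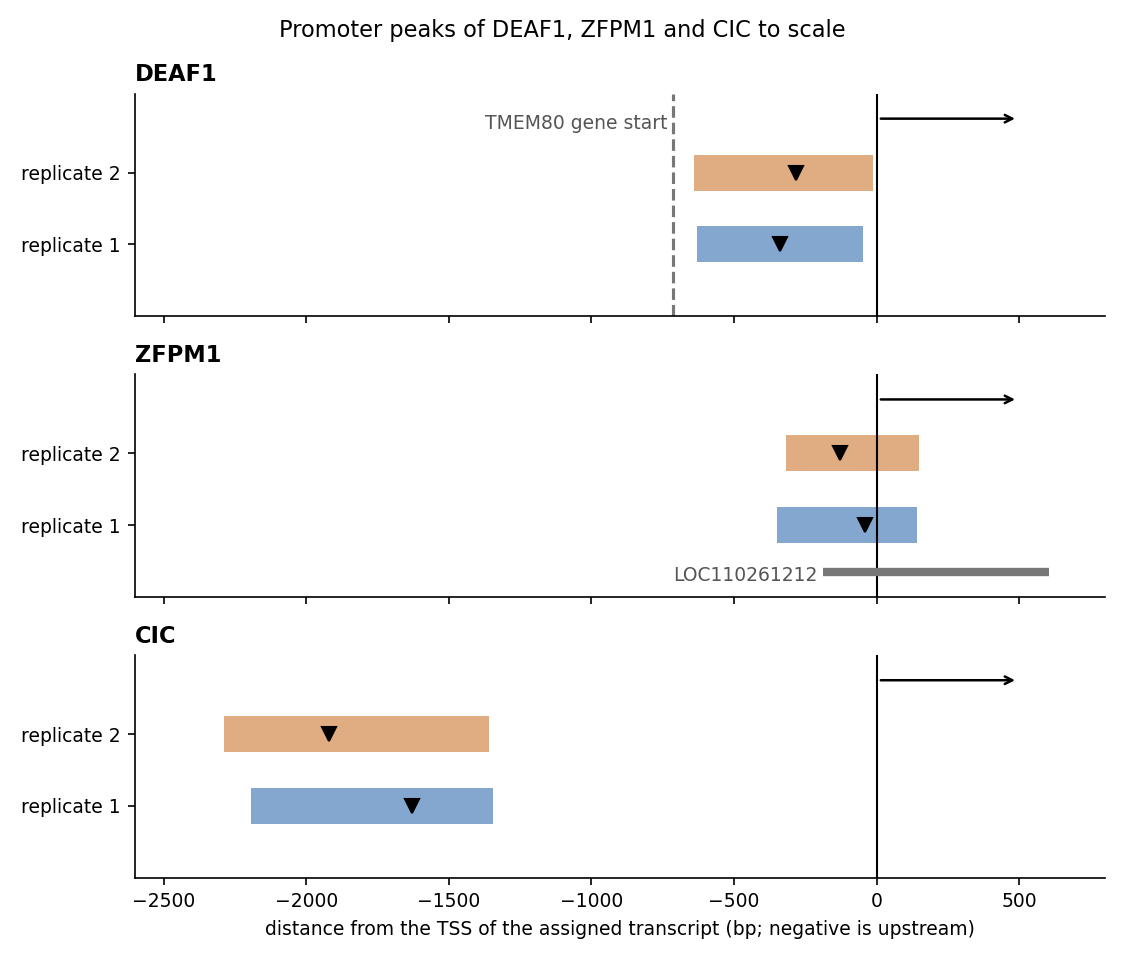
Promoter peaks of DEAF1, ZFPM1 and CIC drawn to scale against the TSS of the assigned transcript (x axis, bp, negative upstream, transcription to the right). Bars are the deposited peaks of replicate 1 and replicate 2 and triangles their summits; DEAF1 is bounded by TMEM80 at 713 bp, ZFPM1 spans its TSS, and CIC lies wholly upstream, its nearest edge at 1344 bp in replicate 1.

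The libraries placed these peaks at nearly the same positions, least closely at CIC. The shift between the summits of the libraries was 55 bp at DEAF1, 89 bp at ZFPM1 and 290 bp at CIC. The median shift over 3913 shared promoter peaks was 92 bp, and 88.9% of them shifted less than CIC. Among the 418 that were at least 800 bp wide in both libraries, as CIC was, the median was 100.5 bp and 81.8% shifted less than CIC.

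Fragment counts differed between the libraries about as they did elsewhere. The ratio of replicate 1 to replicate 2 was 1.14 at DEAF1 (exact 95% interval 0.928 to 1.40), 1.31 at ZFPM1 (0.958 to 1.79) and 1.40 at CIC (1.054 to 1.86). The median over the shared promoter peaks was 1.31, with 5% of them below 0.857 and 5% above 1.93. The median lay within the counting interval of each of the 3 genes. The interval of CIC lay above 1, and it holds the ratio of the lowest backgrounds of the libraries, 1.23, which stands in for their relative depth.

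The 3 genes differed in what surrounds them. Within 50 kb of the DEAF1 TSS, which holds 8 protein-coding genes with a symbol, there were 2 peaks in replicate 1 and 1 in replicate 2. Besides the promoter peak, replicate 1 had 1 in the first exon of TALDO1, the transaldolase of the pentose phosphate pathway, 38.0 kb away (3.97-fold, 15 fragments). Genes with a promoter peak in each library and 7 to 9 such genes around them had a median of 4 peaks in replicate 1 and 3 in replicate 2 in that window, and 90.2% and 92.1% of these 265 genes had more than DEAF1. The strongest promoter peak of a protein-coding gene with a symbol thus stood nearly alone in a gene-dense stretch. ZFPM1, with 2 protein-coding genes with a symbol in the window, had 2 peaks in replicate 1 and 1 in replicate 2, and both of those in replicate 1 are the peaks described above.

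CIC stood in a cluster of peaks. Its window holds 9 protein-coding genes with a symbol and had 8 peaks in replicate 1 and 5 in replicate 2, all 5 of which overlapped a replicate 1 peak. Among the 177 genes with a promoter peak in both libraries and 8 to 10 genes around them, the median was 4 peaks in both libraries, and 96.6% had fewer than CIC in replicate 1 and 75.7% in replicate 2. The promoter of GSK3A, a kinase of WNT and insulin signalling, had 6.01-fold from 40 fragments in replicate 1 and 5.68-fold from 31 in replicate 2, at 25.8 kb upstream of CIC. DEDD2, a death effector domain gene 47.0 kb upstream, had 5.94-fold from 29 fragments and 4.33-fold from 19, the latter listed as 5′ UTR.

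The promoters of ERF and PRR19 had peaks in replicate 1 only. ERF, an ETS-domain repressor that ERK phosphorylates and the nearest gene upstream of CIC, had 3.71-fold from 21 fragments (13.0 to 32.1). PRR19, a gene of meiotic crossover formation, had 3.68-fold from 20 fragments (12.2 to 30.9). That peak (49635640 to 49636202) overlaps PRR19 and lies wholly within PAFAH1B3 (49635625 to 49638172), so it cannot be assigned to PRR19 alone by position. The CIC promoter peak, with 123 and 88 fragments, was the highest in its window in both libraries, and GSK3A came next.

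**Figure D2:**
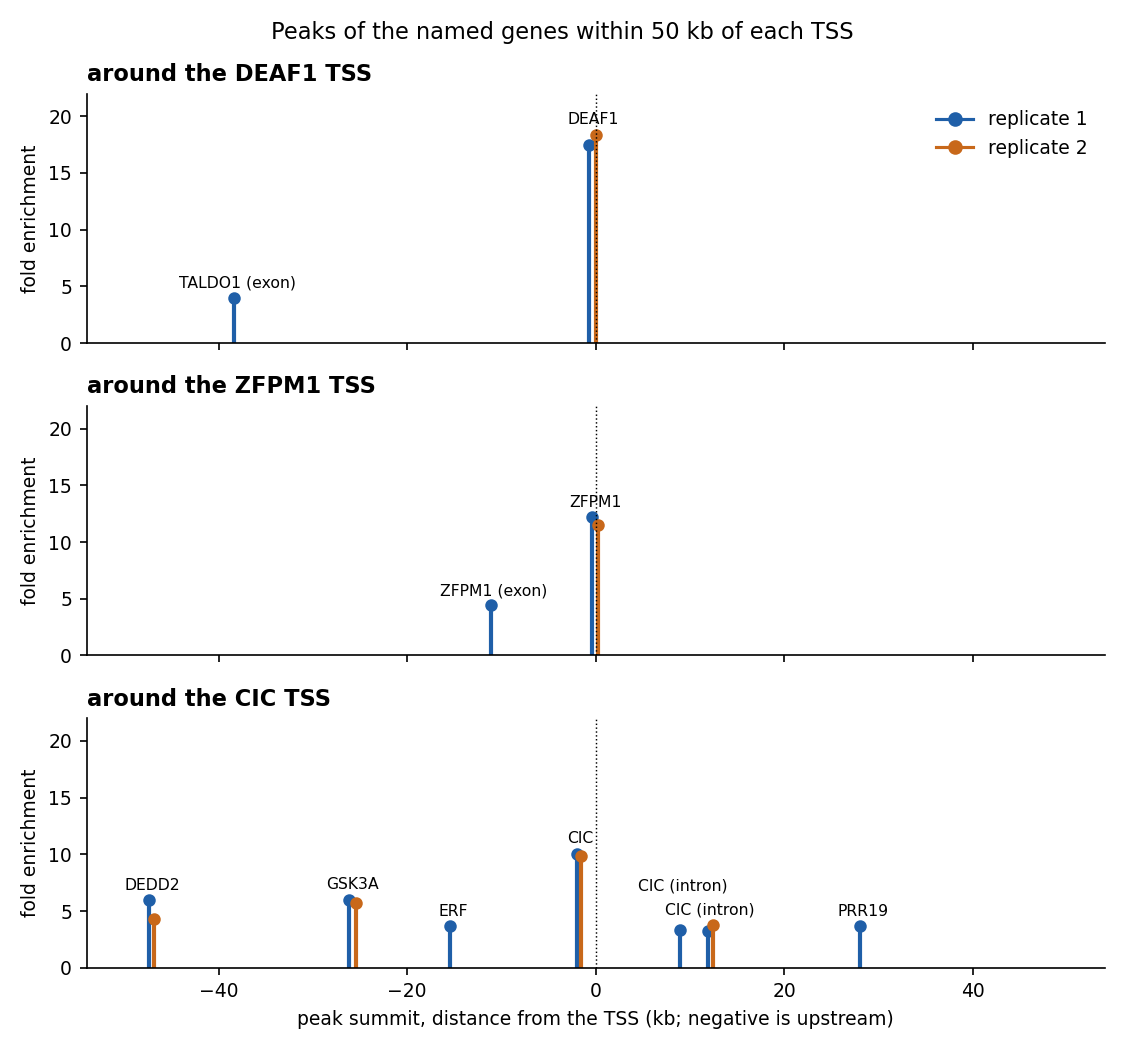
Peaks of the genes named in the text within 50 kb of the TSS of DEAF1, ZFPM1 and CIC, by distance of its summit from the TSS (x axis, kb, negative upstream) and deposited fold enrichment (y axis). Blue is replicate 1 and orange replicate 2, drawn slightly to either side of their position so that both show, with the assigned gene named; CIC had 8 and 5 peaks, of which 1 in each library is not drawn, and DEAF1 and ZFPM1 had 2 and 1 each.

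All 3 promoter peaks stood on a high local background, which lowers their fold. The background at DEAF1 was 4.03 times the median of promoter peaks in both libraries. At ZFPM1 it was 2.67 times the median in replicate 1 and 2.56 times in replicate 2, and at CIC 4.24 and 3.69 times. It was above that of 98.7% of promoter peaks or more at each gene in both libraries. No other listed peak lay within 10 kb of any of the 3 promoter peaks, in either library. For peaks with none within 10 kb, background rose with height: in replicate 1 the median went from 1.80 fragments at 15 summit fragments or fewer to 2.78 at 16 to 30, 4.15 at 31 to 60 and 7.01 above 60. In replicate 2 it went from 1.62 to 2.50, 3.79 and 7.23. A low summit can pass the q-value threshold only over a low background, so part of this rise is built into the lists. In replicate 1 the highest background was 4.39 at 15 summit fragments or fewer and 8.38 at 16 to 30. How much of the rise comes from the threshold was not tested. Whether a peak's own fragments enter its background was not tested.

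Against promoter peaks of like height, ZFPM1 had a lower background than most and CIC a higher one than most. At a given summit height, a higher fold means a lower background. The genes were chosen by fold, so a low background among peaks of like height follows in part from that choice. Of 17 other promoter peaks in replicate 1 with summit fragments within 1.25 times those of ZFPM1, 4 had a lower background, and 4 of 14 did in replicate 2. For CIC, 4 of 4 such peaks in replicate 1 had a lower background (7.81 to 11.06 fragments), and 6 of 8 in replicate 2. Those 8 ran from 5.59 to 28.9 fragments, with CIC at 8.05. DEAF1 had 3 and 1 peaks of like height, all with higher backgrounds, from 19.9 to 112 fragments, and all on 1 unplaced contig that also holds RN18S, an 18S ribosomal RNA gene. DEAF1 and ZFPM1 lie within 2 Mb of the start of their chromosomes. Promoter peaks there had a median background of 3.19 fragments in replicate 1 against 2.66 elsewhere, and 2.54 against 2.17 in replicate 2. The part of this position in the background at DEAF1 and ZFPM1 was not tested.

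The order of the 3 genes depended on how a peak's height was expressed. By deposited fold DEAF1 ranked 1 in both libraries, ZFPM1 5 and 4, and CIC 61 of 5415 genes in replicate 1 and 29 of 4115 in replicate 2. By summit fragments DEAF1 again ranked 1, CIC 3 and 4, and ZFPM1 7 and 5. The −log10 p-value put CIC at 4 in both libraries and ZFPM1 at 6 and 5. Set against the lowest background of its library in place of the local one, DEAF1 stood at 92.9-fold and 91.0-fold, CIC at 56.2-fold and 45.0-fold, and ZFPM1 at 44.9-fold and 38.4-fold. Thus CIC passed ZFPM1 in each library by summit fragments and by −log10 p-value. Fold over the lowest background has 1 fixed divisor per library, so it must rank genes as summit fragments do.

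The selection gives no fold threshold. Ordered by the lower of the percentile ranks in the libraries, DEAF1 was at place 1, ZFPM1 at 3 and CIC at 18 of 3439 genes with a promoter peak in both. The gene just before CIC, ALDH6A1, a mitochondrial dehydrogenase, had 10.1-fold and 10.0-fold, and the gene just after had 12.1-fold and 9.39-fold.

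**Figure D3:**
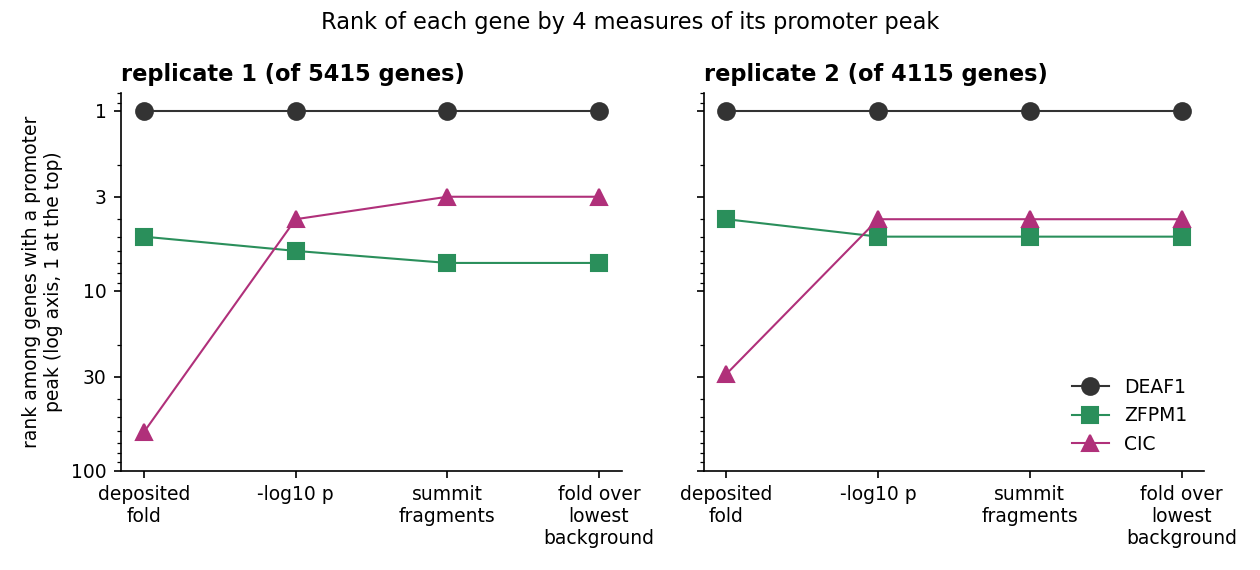
Rank of DEAF1, ZFPM1 and CIC among genes with a promoter peak (y axis, log, 1 at the top) by 4 measures (x axis) in replicate 1 and replicate 2. DEAF1 ranks 1 throughout, while CIC moves from 61 and 29 by fold to 3 and 4 by summit fragments. Fold over the lowest background ranks genes as summit fragments do by construction.

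Genes with the most similar promoter peaks were sought by Euclidean distance over 4 values, the log2 summit fragments and log2 background in both libraries, among the 3439 genes. DEAF1 had no close match: the nearest was NDUFA11, a complex I subunit, at a distance of 1.10, with 126 and 99 fragments, followed by CIC at 1.27 and UBXN6, an adaptor of the VCP ATPase, at 1.36. DEAF1 was chosen as an extreme and held the most summit fragments of these genes, so this follows in part from the choice. ZFPM1 was closest to AP2A1, a subunit of the clathrin adaptor AP2, at 0.183 (106 and 73 fragments), then ALDH6A1 at 0.316 and TOMM40, a mitochondrial import channel, at 0.331. CIC was closest to NDUFA11 at 0.198, then UBXN6 at 0.502 and MBOAT7, a lysophospholipid acyltransferase, at 0.708. The same gene, NDUFA11, was thus nearest to both DEAF1 and CIC, far more closely to CIC.

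Genes that work with the 3 regulators were then read from 3 lists. In both libraries a promoter peak was assigned to 20.8% of all 16509 genes. The 3 regulators have one by the way they were chosen. Of 11 SAND domain and DEAF1 partner genes found in the gene table, 1 had one (9.09%): GMEB2, a SAND domain factor, with 4.42-fold from 17 fragments and 4.90-fold from 16. No peak was assigned to 8 of the 11, among them AIRE, the SAND domain factor of thymic tolerance, GMEB1, and LDB1, a LIM-binding cofactor. LMO4, a LIM protein that binds DEAF1, had a distal peak in both libraries, 16.6 kb away (5.1-fold and 5.0-fold, 13 and 10 fragments); it is named here after its values were seen. The highest promoter peak at these genes had 17 fragments in replicate 1 and, at SKI, a co-repressor with a SAND-like domain, 25 in replicate 2. That these lie below DEAF1 follows from its being the highest of all protein-coding genes with a symbol.

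Both libraries held a promoter peak at 8 of 22 FOG, GATA and NuRD genes (36.4%), with a median fold of 6.37 in replicate 1 and 6.32 in replicate 2, against 5.85 and 5.45 over all genes with one in both. The first 4 by the lower of their fold ranks in the libraries were NuRD subunits: RBBP4, a histone chaperone (7.05-fold and 6.61-fold), GATAD2A (8.37-fold and 6.02-fold), HDAC2, a histone deacetylase (6.49-fold and 6.72-fold), and GATAD2B (6.28-fold and 7.43-fold). Of the 6 GATA genes, GATA2 alone had one in both, at 4.22-fold and 3.42-fold from 17 and 11 fragments; it is named here after its values were seen. ZFPM2, the paralogue of ZFPM1, likewise named afterwards, had no promoter peak, and the peak assigned to it lay 96.8 kb away in replicate 1 (3.91-fold, 10 fragments) and 96.9 kb in replicate 2 (3.72-fold, 9 fragments). No peak was assigned to 8 of the 22, such as GATA1, CHD3, a NuRD remodeller, and CTBP2, a co-repressor. The NuRD genes MTA1, MTA3, RBBP7, MBD2 and MBD3, named after their values were seen, also had no promoter peak in either library. CHD4 and MTA2, named likewise, had one in both.

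For CIC partner and RAS-ERK output genes this was the case at 7 of 21 (33.3%), with a median fold of 5.72 and 4.24. All of ETV1, ETV4 and ETV5 were among them. ETV5, an ETS factor of spermatogonial stem cell self-renewal, had the highest deposited fold of the list, at 8.42-fold from 43 fragments and 8.29-fold from 35. By summit fragments SIN3A, a co-repressor scaffold named after its values were seen, was higher in replicate 1, with 61 against 43, and lower in replicate 2, with 27 against 35. ETV1 had 4.88-fold from 20 fragments and 4.24-fold from 17, with its nearest edge 1091 and 1190 bp upstream of the TSS. ETV4, named after its values were seen, had 5.72-fold from 17 fragments and 3.52-fold from 10. HDAC1 (6.27-fold and 6.63-fold) and HDAC2, which this list shares with the one above, also had one in both.

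Of the 9 feedback inhibitor genes of the DUSP, SPRY and SPRED families in the list, 4 had a promoter peak in replicate 1 and 1, SPRED1, in replicate 2. Over all genes, 32.8% had one in replicate 1 and 24.9% in replicate 2. DUSP6, an ERK phosphatase, had 4.06-fold from 18 fragments in replicate 1 only, and SPRY2, a Sprouty inhibitor, 4.07-fold from 16 in replicate 1 only. Both are named after their values were seen. ATXN1L, a partner of CIC in repression and named likewise, had 5.74-fold from 15 fragments in replicate 1 only. No peak was assigned to 7 of the 21, such as the cyclin genes CCND1 and CCND2 and the phosphatase gene DUSP5. Every promoter peak in these lists stood on fewer fragments than the promoter peaks of DEAF1, ZFPM1 and CIC in the same library. Those members were chosen for promoter peaks among the highest by fold, so this follows largely from the choice. By summit fragments even ZFPM1, the lowest of them, ranked 7 of 5415 genes in replicate 1 and 5 of 4115 in replicate 2.

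**Figure D4:**
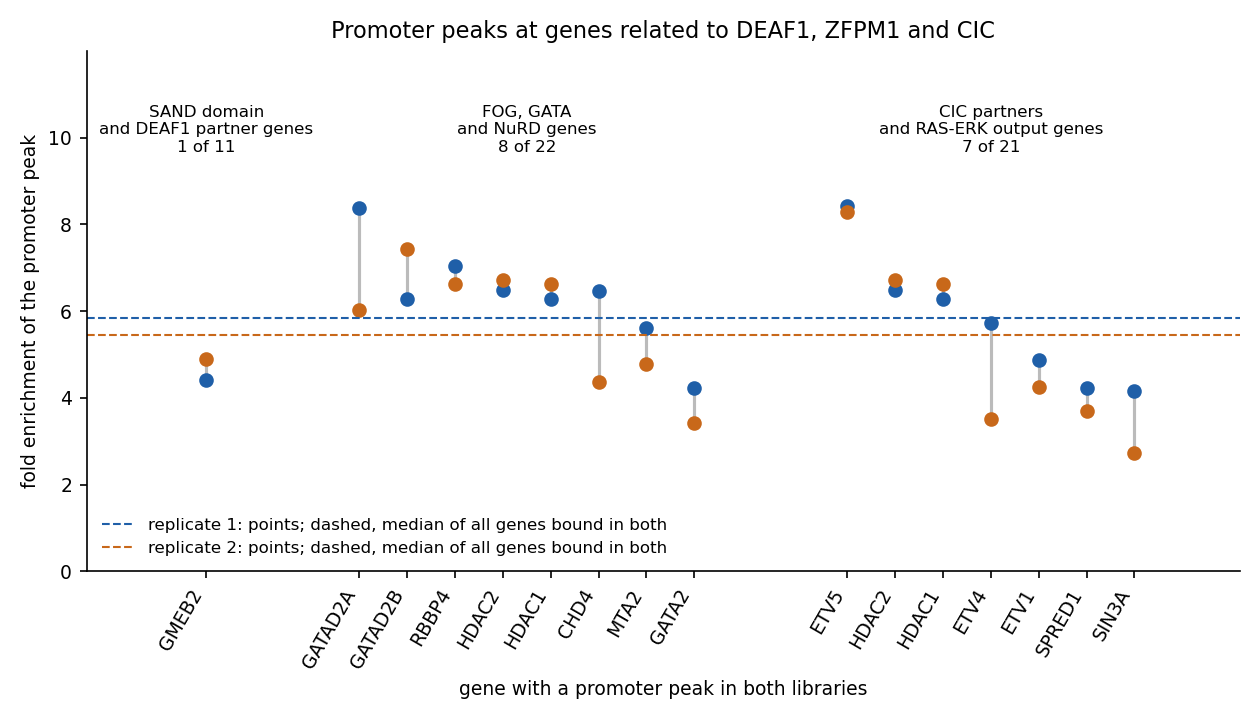
Deposited fold enrichment of the promoter peak (y axis) at each list gene that had one in both libraries (x axis), blue for replicate 1 and orange for replicate 2, joined by a grey line. Dashed lines mark the median over all genes with one in both, 5.85 and 5.45; 1 of 11, 8 of 22 and 7 of 21 genes of the lists are shown.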

How the data were processed

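The authors deposited 1 list of peaks per library. The submitters' processing notes name Sscrofa11.1 as the build. The aligner, caller, control and annotation software were not given in the sources used here. Per the file headers, each deposited peak has a −log10 q-value, a −log10 p-value, a fold enrichment (a linear ratio), a width, a summit, an annotation and 1 assigned gene. A deposited score column, equal to the −log10 q-value times 10 as a whole number, was left unused. No peak in either deposited list had a −log10 q-value under 1.31.

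The sequencing depth is unknown. For each peak, the whole number of summit fragments and the background were found at which (fragments + 1)/(background + 1) gives the fold and the Poisson tail above the fragments gives the p-value. The p-value was met to a relative tolerance of 1e-05 at 100% of the peaks of both lists. On 387 peaks simulated with this same formula 100% were recovered, which checks the inversion but not whether the caller used the formula. The highest backgrounds reported here lie above the simulated ones. The lowest backgrounds were 1.21 fragments (replicate 1) and 0.979 (replicate 2). Median summit height was 16 and 14 fragments, so counting error is wide at most peaks.

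Peaks were shared when they overlapped by at least 1 bp, and windows of 50 kb were counted by summits. Genes were protein-coding RefSeq genes with a symbol other than a LOC number. No test was run, since the members were chosen by the values described and there is 1 group. The members and lists were chosen with earlier results of these data known. Named were the members, genes with a peak within 50 kb of them, and the 3 most similar genes per member. From each list came up to 4 with a promoter peak in both libraries (by rank) and up to 3 with no peak (alphabetically). Exceptions are marked, and TMEM80, LOC110261212, ZNF469, PAFAH1B3, RN18S, SKI and SPRED1 are named for their position or value. Promoter sequences were not analysed here, and 1 gene is not reported here. Alternatives were other measures of height, windows, thresholds, overlaps and gene assignments, and each library left out. A further alternative reduced the replicate 1 list to the length of the replicate 2 list. Scripts ran in Python 3.11.15 with scipy 1.17.1 for the Poisson tail, pandas 2.3.3 and numpy 2.4.6 for tables, and matplotlib 3.10.9 for plots.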

Additional observations from a re-analysis of the deposited data

How the results depend on the processing

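Of 66 alternative values, 49 stayed within 1.5 times the reported count or rank, or within the counting interval of the reported ratio, and 17 did not. The rank of CIC moved from 61 in replicate 1 to 3 by summit fragments, 4 by −log10 p-value and 3 by fold over the lowest background, and from 29 in replicate 2 to 4 by each of these. Fold over the lowest background repeats the ranking by summit fragments by construction, though both are among the 66 values. The ranks of DEAF1 and ZFPM1 stayed within 1.5 times. Peaks shared near DEAF1 went from 1 to 4 with a window of 100 kb, and near CIC from 5 to 2 with a window of 20 kb. With either library left out, the count ran from 1 to 2 for peaks assigned to ZFPM1, 1 to 2 for peaks near DEAF1 and near ZFPM1, 5 to 8 near CIC, 1 to 2 for the SAND domain list and 7 to 12 for the CIC list, while over all genes 24.9% had a promoter peak in replicate 2 and 32.8% in replicate 1, against 20.8% in both. The SAND domain list also had 2 genes by any assigned peak (28.2% of all genes) and by any peak within 1 kb of either gene end (29.0% of all genes). That last alternative was chosen after seeing the data: the planned window around the TSS was not run, because the gene table gives no strand. With the replicate 1 list reduced to the length of the replicate 2 list, 18.6% of all genes had a promoter peak in both. The CIC list then had 5 such genes in place of 7, and the FOG, GATA and NuRD list 7 in place of 8. Divided by the ratio of the lowest backgrounds, the fragment ratio of DEAF1 was 0.924. No paired analysis was possible because there is 1 group and no contrast.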
